A study of Mus musculus with 8 samples.

Results

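Interferon-stimulated genes were followed in the liver RNA of obese diabetic mice treated with control or with AF1 peptide. The list held 47 gene symbols, all 47 were found among the 21532 genes of the deposited table, and each was described in 1 of 2 classes. The antiviral class held 35 genes of the type I interferon response and the GTPase class held 12 genes of the guanylate-binding protein (GBP) and immunity-related GTPase (IRG) families. The mice were 8 male db/db mice on the C57BL/6J background, in which the leptin receptor does not work and obesity and diabetes follow, and all 8 carried this genotype. From 8 weeks of age, 4 mice received control and 4 received AF1 peptide, at 5 mg/kg body weight for both, 2 times per week for 5 weeks by retro-orbital injection. AF1 peptide is a synthetic peptide taken from estrogen receptor α and joined to a TAT sequence, which carries peptides into cells. Each library came from the frozen liver of 1 mouse, so the values describe whole liver and not one cell type, and no untreated or lean mice were measured alongside.

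Type I interferons signal through the IFNAR receptor and the kinases JAK1 and TYK2 to the factor ISGF3, which holds STAT2 and IRF9. ISGF3 binds a DNA element named ISRE, and the genes it switches on encode sensors of viral RNA, proteins that block virus growth and enzymes of the ISG15 tag. Interferon gamma signals through its own receptor to another DNA element, named GAS, and it strongly induces IRF1 and the GBP and IRG GTPases that attack vacuoles holding bacteria or parasites. In the liver, Kupffer cells and hepatocytes both respond to these signals. The interferon genes themselves were not analysed here, so the data show the responding genes and not the ligands.

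The 2 DNA elements were looked for in the RefSeq promoter windows of GRCm38.p6, from 250 bases before to 50 bases after each start. Of the 47 genes, 33 had a window, 25 of them antiviral and 8 GTPases. The ISRE core was searched as GAAA, 2 free bases and GAAA (TTTC, 2 free bases and TTTC on the other strand). The GAS core was searched as TTC, 3 free bases and GAA, which reads the same on both strands. Overlapping matches were kept. At least 1 ISRE core was found for 12 of the 25 antiviral genes and 7 of the 8 GTPases, against 3.99% of all 27025 genes with a window and 3.44% of all 32851 windows. A GAS core was found for 7 of the 25 antiviral genes and 4 of the 8 GTPases, against 9.55% of all genes with a window and 8.3% of all windows. Both cores lay in 1 window for 3 antiviral genes and 4 GTPases, against 0.54% of all genes with a window. A match describes letters only, and it does not show that a factor was bound in these livers.

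The stretches below show a selection of the genes with a match before the start, 5′ to 3′ along the gene, with the bases of every match in capitals. Stat2, Bst2, Ifit2, Eif2ak2, Oas1a, Oas3, Rsad2, Samhd1, Gbp2 and Gbp3 also had matches there and are not shown. Irf7, Irf9, Oasl1, Cmpk2 and Dtx3l, to which the results also return, had no match in their windows. In Isg15 (minus strand, chr4:156200867-156200904) 3 ISRE cores overlapped in tandem, and in Ifit1 (plus strand, chr19:34640777-34640821) and Ifit3 (plus strand, chr19:34583365-34583424) a pair of cores lay apart on the opposite strand.
Isg15: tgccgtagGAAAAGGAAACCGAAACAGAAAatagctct
Ifit1: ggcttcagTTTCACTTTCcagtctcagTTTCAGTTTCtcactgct
Ifit3: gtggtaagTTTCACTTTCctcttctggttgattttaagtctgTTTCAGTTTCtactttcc
Ifit3b, the neighbouring copy of Ifit3, had the same letters over this stretch (plus strand, chr19:34607761-34607820), and over the 218 bases before the start that could be aligned without gaps the copies shared 86.2% of the bases.

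Among the GTPases, Irgm2 (plus strand, chr11:58214894-58214930), Igtp (plus strand, chr11:58199503-58199539) and Tgtp1 (minus strand, chr11:48992306-48992342) had the same arrangement, a GAS core 2 bases before an ISRE core. Irgm1 (minus strand, chr11:48871427-48871458) had overlapping ISRE cores and no GAS core, and Gbp7 (plus strand, chr3:142530222-142530300) had 2 GAS cores and then an ISRE core. Irf1 (plus strand, chr11:53769916-53769940), itself a regulator of the GTPases, had a GAS core alone in 1 of its 2 windows.
Irgm2: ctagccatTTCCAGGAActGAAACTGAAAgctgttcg
Igtp: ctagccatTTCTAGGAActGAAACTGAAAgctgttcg
Tgtp1: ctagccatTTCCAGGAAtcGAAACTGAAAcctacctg
Irgm1: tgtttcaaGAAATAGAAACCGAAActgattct
Gbp7: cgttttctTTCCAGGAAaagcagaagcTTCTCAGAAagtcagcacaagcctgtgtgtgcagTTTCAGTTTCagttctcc
Irf1: agcctgatTTCCCCGAAatgatgag

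The libraries held 23031880 to 45117528 reads assigned to the deposited genes, and the listed genes made up 0.0626 to 0.0886% of these reads. Reads of the 13 mitochondrial genes made up 20.8 to 37.8% (two-sided exact permutation test between groups, p = 0.4). AF1 peptide replicate 1 stood apart from the other 7 libraries: it was the lowest of the 8 mice for 23.4% and the highest for 25.9% of the 15989 genes tested, and it had the lowest mitochondrial share. The hepatocyte markers were abundant in all 8 mice, and results that rest on replicate 1 are given with and without it. All values below are normalized read counts, which are reads divided by 1 size factor per library. A level between genes is compared only per kb of annotated exon.

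No interferon-stimulated gene passed the test between control and AF1 peptide-treated livers. A gene was called with an unadjusted p value under 0.05 and a change of more than 1.3-fold in limma on log2(normalized count + 1), and 0 of the 47 genes were called lower, against 1.9% of all genes tested. Likewise 0 of the 47 were called higher, against 1.79% of all genes tested. Not 1 of the 47 had an unadjusted p value under 0.05, against 6.19% of all genes tested, and the smallest limma adjusted p value was 0.763. edgeR and DESeq2 on the recovered reads also called 0 of the 47, against 3.92% and 3.88% of all genes tested. An unadjusted p value under 0.05 was given to 1 of them, Gbp9, by edgeR and to 0 by DESeq2, against 6.48% and 6.3%. For all 47 genes the values of the control and AF1 peptide-treated mice overlapped, while they did not overlap for 3.9% of all genes tested.

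The log2 fold changes of the 47 genes ran from -0.92 to 0.33, with standard errors of 0.09 to 0.92. The lowest value and the largest standard error were those of Oas3, which had 0 reads in AF1 peptide replicate 1 and was at 0.21 ± 0.34 without that mouse. Ifit2 came next at -0.57. The antiviral genes had a median log2 fold change of -0.05, and 21 of 35 were below 0. The GTPases lay somewhat lower, with a median of -0.18 and 10 of 12 below 0. The median of all genes tested was -0.01, with 51.8% below 0. The medians describe the lists and were not tested, and those of both classes moved above 0 when AF1 peptide replicate 1 was left out. The antiviral median also moved just above 0, to 0.005, without control replicate 3. When libraries were rescaled to equal totals, the median of all genes tested was -0.10 and 2 of the 47 genes, Oasl1 and Gbp9, were called lower, against 3.77% of all genes tested. On that scale 0 of the 47 were called higher, against 0.763%.

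**Figure D1:**
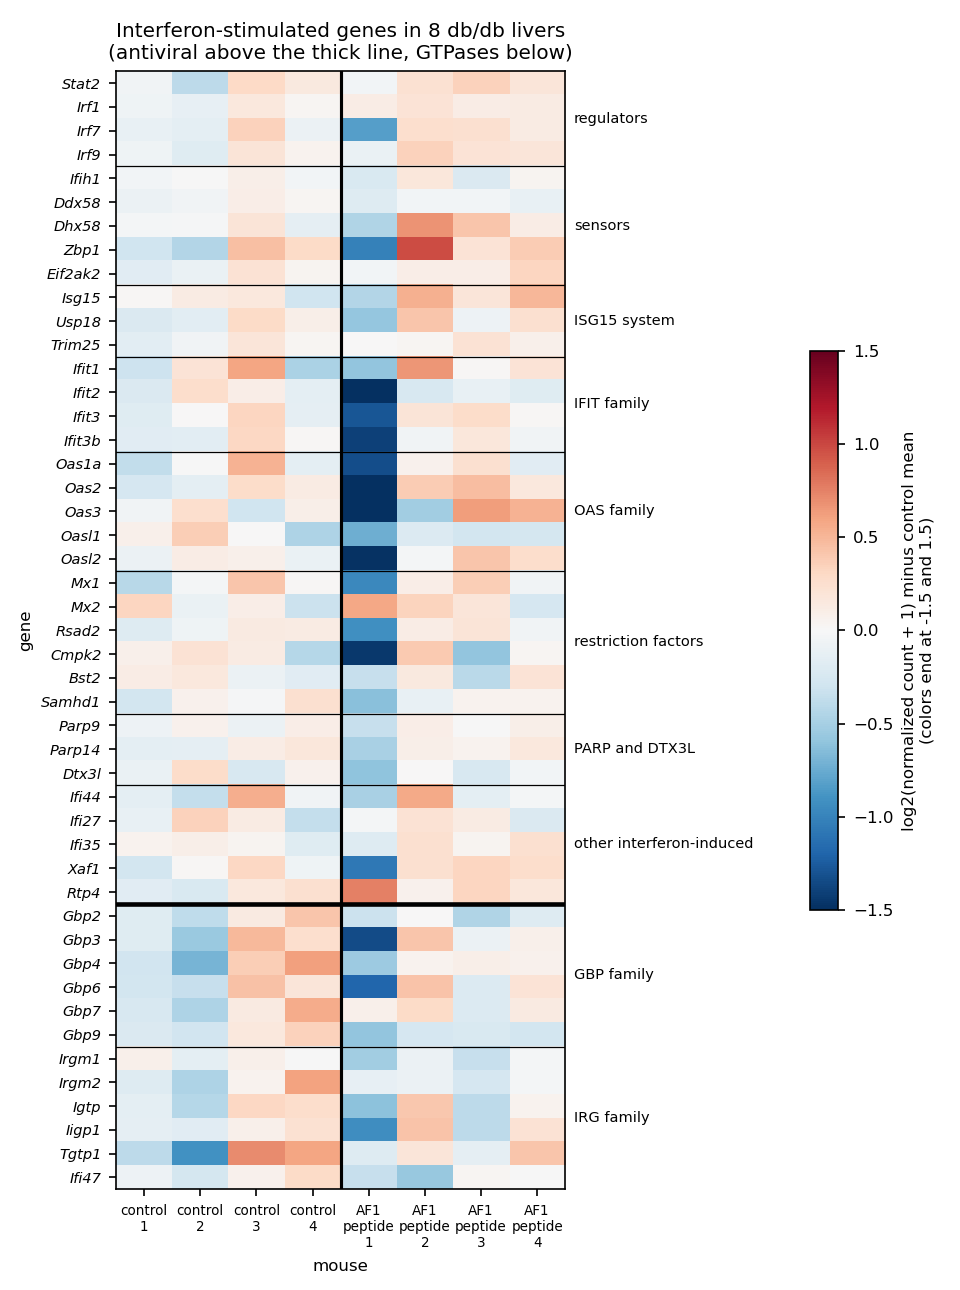
Each row is 1 of the 47 genes and each column is 1 mouse, and the color is log2(normalized count + 1) minus the mean of the 4 control mice, with blue lower and red higher. AF1 peptide replicate 1 has the lowest value of the 8 mice for 32 genes, and the GTPases below the thick line are higher in control replicates 3 and 4 than in 1 and 2 for 11 of 12 genes.

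The deepest values came from 1 mouse. AF1 peptide replicate 1 had the lowest level of the 8 mice for 26 of the 35 antiviral genes and 6 of the 12 GTPases, where 23.4% of all genes tested had their lowest value in this mouse. Its level was under 50% of the control mean for 13 of the 47 genes, against 7.96% of all genes tested. Averaged over the antiviral genes, log2(normalized count + 1) in this mouse was -0.70 from the control mean. The other AF1 peptide-treated mice were at 0.19, 0.11 and 0.09, and the controls at -0.12, -0.01, 0.18 and -0.05. The same mean over the GTPases was -0.55 in replicate 1 and 0.10, -0.21 and 0.05 in the others.

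Markers of Kupffer cells, the resident macrophages of the liver, moved with the antiviral genes in this mouse. The mean over 10 Kupffer cell markers was -1.24 in AF1 peptide replicate 1, against -0.13, 0.04 and 0.01 in the rest of its group and -0.19 to 0.28 in controls. The summed normalized count of the 10 markers was 3513 in replicate 1, against 8756 to 9431 in the rest of its group and 7951 to 10196 in controls, and none of the 10 was at 0. Of the 10, only Adgre1 had an unadjusted limma p value under 0.05 (log2 fold change -0.66 ± 0.27, with replicate 1 included). Replicate 1 had the lowest level of the 8 mice for 9 of the 10 markers. Their mean over the treated mice was -0.33 with replicate 1 and -0.03 without it. In bulk liver, fewer cells of a type and less RNA per cell cannot be told apart. The 9 hepatocyte markers did not move together in replicate 1: 3 had their lowest and 4 their highest level of the 8 mice there. Their mean was 0.12, inside the -0.16 to 0.17 of controls, but their summed normalized count was 2315960, the lowest of the 8 mice, against 3005500 to 3178290 in controls. Siglech, a marker of plasmacytoid dendritic cells, which are a main source of type I interferon, was at 4.12 to 28.8 over the 8 mice. It was tested with Ly6d, Tcf4 and Il3ra, and the 4 summed to 1840 in replicate 1 and 4165 to 11746 in the other mice. Siglech made up little of that sum, which therefore mostly follows the other genes. The mean over these 4 markers was -0.81 in replicate 1, where 2 had their lowest level of the 8 mice, and -0.43 to 0.30 in controls. In replicate 1 the means were -0.42 for dendritic cell, 0.28 for T and NK cell, -1.34 for B cell, -1.27 for neutrophil, -0.19 for sinusoidal endothelial cell, -0.34 for stellate cell and -0.36 for cholangiocyte markers. The part of these cells and of the library itself in the antiviral values was not tested.

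**Figure D2:**
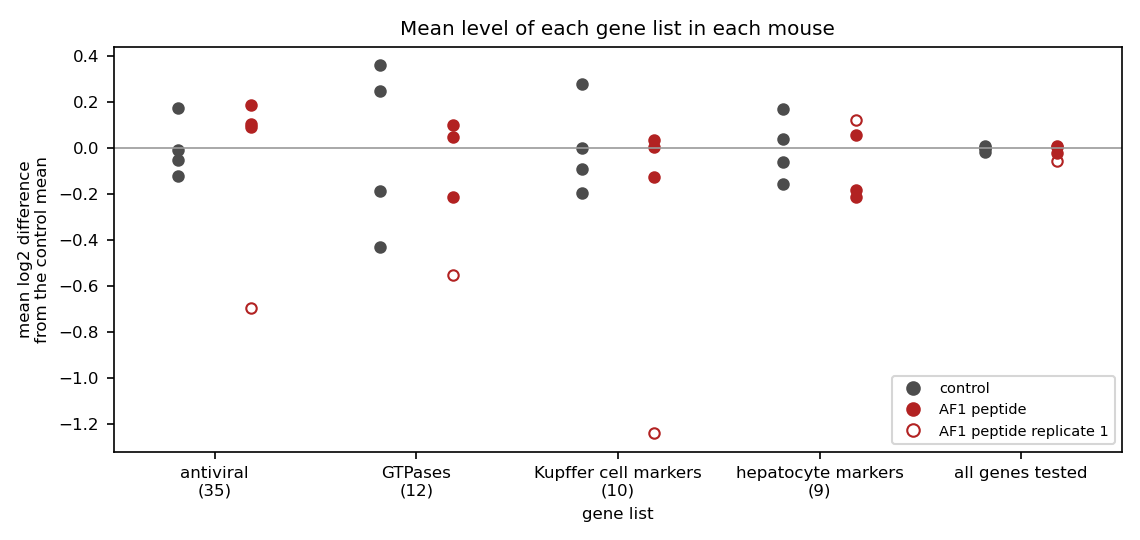
Points are mice, and the y axis is the mean over a gene list of log2(normalized count + 1) minus the control mean, with control in grey, AF1 peptide in red and AF1 peptide replicate 1 as an open circle. The open circle lies at -0.70 for the antiviral genes, -0.55 for the GTPases and -1.24 for the Kupffer cell markers. It lies at 0.12 for the hepatocyte markers, of which 3 were lowest and 4 highest of the 8 mice there.

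Of the 4 transcription regulators on the list, 0 passed the test. Stat2, the ISGF3 subunit with the second highest level per kb of the antiviral genes (591 normalized counts per kb), had normalized counts of 3141, 2480, 4007 and 3594 in controls and 3150, 3826, 4123 and 3691 in AF1 peptide-treated mice. Control replicate 2 was the lowest, the groups overlapped, and the log2 fold change was 0.18 ± 0.15 (SE, n = 4 per group; limma adjusted p = 0.825). Irf9, the DNA-binding subunit, was at 595, 549, 713 and 647 in controls and 581, 795, 718 and 705 with AF1 peptide. It also overlapped, with a log2 fold change of 0.16 ± 0.12 (limma adjusted p = 0.81). Irf1, with the lone GAS core shown above, was the least variable regulator, at 1229, 1176, 1432 and 1310 in controls and 1382, 1481, 1389 and 1392 with AF1 peptide. All 4 treated mice lay above 3 of the 4 controls, and the log2 fold change was 0.14 ± 0.09 (limma adjusted p = 0.781).

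Irf7, which amplifies type I interferon production and is itself induced by interferon, behaved otherwise in 1 mouse. Its normalized counts were 957, 939, 1321 and 975 in controls and 583, 1240, 1225 and 1129 with AF1 peptide. AF1 peptide replicate 1 was at 55.7% of the control mean, whereas the other 3 treated mice lay between the lower 3 controls and control replicate 3. The log2 fold change was -0.05 ± 0.23 (limma adjusted p = 0.974). It was 0.21 ± 0.13 without replicate 1 and 0.06 without control replicate 3, so the sign turned with either mouse.

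Among the sensors of viral nucleic acid a steady and a variable gene stood side by side. Ddx58, which encodes RIG-I, was at 424, 434, 481 and 460 in controls and 393, 437, 436 and 414 with AF1 peptide, within a range of 0.29 on the log2 scale. The groups overlapped and the log2 fold change was -0.10 ± 0.09 (limma adjusted p = 0.836). Zbp1, a sensor of Z-form nucleic acid that can trigger cell death, was at 125, 113, 210 and 188 in controls and 75.6, 305, 178 and 200 with AF1 peptide. The lowest and the highest mouse were both treated mice, and the log2 fold change of 0.14 ± 0.37 (limma adjusted p = 0.949) became -0.14 without AF1 peptide replicate 2 and -0.01 without control replicate 2. Dhx58, Ifih1 and Eif2ak2, which encode LGP2, MDA5 and the kinase PKR, had log2 fold changes of 0.19, -0.06 and 0.12, with none past the test.

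Isg15, the ubiquitin-like protein that tags other proteins and the gene with 3 ISRE cores above, was at 218, 234, 240 and 174 in controls and 159, 310, 244 and 305 with AF1 peptide. AF1 peptide replicate 1 was the lowest of the 8 mice and the other 3 treated mice were the highest. Group means were 217 ± 29.8 and 254 ± 70.7 (SD, n = 4), and the log2 fold change was 0.19 ± 0.21 (limma adjusted p = 0.854). Usp18, which removes ISG15 and also damps the receptor, had a log2 fold change of 0.00 ± 0.22. Trim25, a ligase that acts on RIG-I, had one of 0.08 ± 0.10.

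The IFIT proteins bind foreign RNA and stop its translation, and all 4 genes of the family had their lowest level in AF1 peptide replicate 1. Ifit2 was at 83.2, 117, 104 and 87.9 in controls and 28.0, 82.2, 89.8 and 85.4 with AF1 peptide. Replicate 1 had 30 reads of this gene and was at 28.6% of the control mean, while AF1 peptide replicate 2 was just below the lowest control and the other 2 treated mice lay among the controls. The log2 fold change was -0.57 ± 0.34 with all mice (limma adjusted p = 0.774) and -0.18 ± 0.17 without replicate 1. Ifit3 and Ifit3b, whose promoter stretches share their letters, were at 40.5% and 36.9% of the control mean in this mouse. They also share 51.2% and 45.0% of their 50-base transcript words with each other, among few others, so reads may have been split between them. Ifit1 was at 63.1% of the control mean there and had a log2 fold change of 0.07 ± 0.29.

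The OAS family, enzymes that make the 2-5A signal for RNase L and their relatives, had its lowest level in AF1 peptide replicate 1 for all 5 genes. Oas2 was at 212, 228, 305 and 276 in controls and 87.7, 329, 348 and 281 with AF1 peptide. Without replicate 1 the treated mice overlapped the upper controls, and the log2 fold change turned from -0.13 ± 0.38 (limma adjusted p = 0.956) to 0.33 ± 0.15 (limma adjusted p = 0.494). The latter had an unadjusted p value under 0.05 but stayed under the 1.3-fold threshold. Oasl2 was at 35.3% and Oas1a at 38.2% of the control mean in this mouse, and Oas1a shares 57.6% of its words with Oas1g or Oas1b. Oas3 was the lowest of all 47 genes, with 0 to 36 reads per mouse, and its 0 reads in replicate 1 allow a normalized count of up to 2.80 by counting error alone, against 15.1 to 22.6 in controls.

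Oasl1, which limits the translation of Irf7, was the antiviral gene with the smallest p value. Its normalized counts were 268, 330, 256 and 185 in controls and 153, 221, 209 and 211 with AF1 peptide. All 4 treated mice lay below control replicates 1 to 3, and all but AF1 peptide replicate 1, the lowest, lay above control replicate 4. Means were 260 ± 59.4 and 199 ± 30.8 (SD, n = 4), and the log2 fold change was -0.37 ± 0.19 (limma adjusted p = 0.763). When libraries were rescaled to equal totals it was -0.46 and without control replicate 4 it was -0.52, each with an unadjusted p value under 0.05.

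The list held 6 genes grouped as restriction factors. Bst2, which encodes tetherin and holds budding virus at the cell surface, had the highest level per kb of all 47 genes (3272 normalized counts per kb). Its normalized counts were 3254, 3366, 2838 and 2679 in controls and 2383, 3357, 2284 and 3479 with AF1 peptide. Treated mice were both the lowest pair and the highest, and the log2 fold change was -0.10 ± 0.16 (limma adjusted p = 0.907). Cmpk2, a mitochondrial nucleotide kinase that lies beside Rsad2 in the genome, was at 88.2, 97.5, 90.8 and 62.0 in controls and 29.9, 110, 55.2 and 85.4 with AF1 peptide. Spread among the treated mice exceeded the difference of the groups, with a log2 fold change of -0.40 ± 0.35 (limma adjusted p = 0.825). Mx1 and Rsad2, the viperin gene, were at 49.6% and 52.0% of the control mean in AF1 peptide replicate 1. Mx2 went the other way there, with 204, the highest of the 8 mice, and Samhd1, which depletes nucleotides, was at 64.0%.

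The PARP and DTX3L genes, which add ADP-ribose or ubiquitin to their targets, were lowest in AF1 peptide replicate 1 in all 3 cases. Dtx3l was at 558, 721, 507 and 621 in controls and 394, 599, 505 and 579 with AF1 peptide. Apart from replicate 1 the treated mice lay inside or next to the control range, and the log2 fold change was -0.22 ± 0.16 (limma adjusted p = 0.792). Parp9 and Parp14 had log2 fold changes of -0.04 and -0.05. Exons of Parp9 and Dtx3l overlap on opposite strands, and whether counting used the strand is not given in the sources used here.

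Rtp4 and Mx2 were the only 2 of the 47 genes with their highest level in AF1 peptide replicate 1. Rtp4, a receptor chaperone that restrains some viruses, was at 356, 341, 446 and 475 in controls and 679, 420, 502 and 452 with AF1 peptide. Replicate 1 was at 168% of the control mean and the other treated mice overlapped the upper controls. The log2 fold change was 0.33 ± 0.17 (limma adjusted p = 0.763), the highest of the list, and 0.19 ± 0.14 without replicate 1. It was 0.42 without AF1 peptide replicate 2 and 0.41 without control replicate 4, each with an unadjusted p value under 0.05. Ifi27, Ifi35 and Ifi44 had log2 fold changes of 0.03, 0.09 and -0.02, and Xaf1, which binds the apoptosis inhibitor XIAP, was at 47.0% of the control mean in replicate 1.

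**Figure D3:**
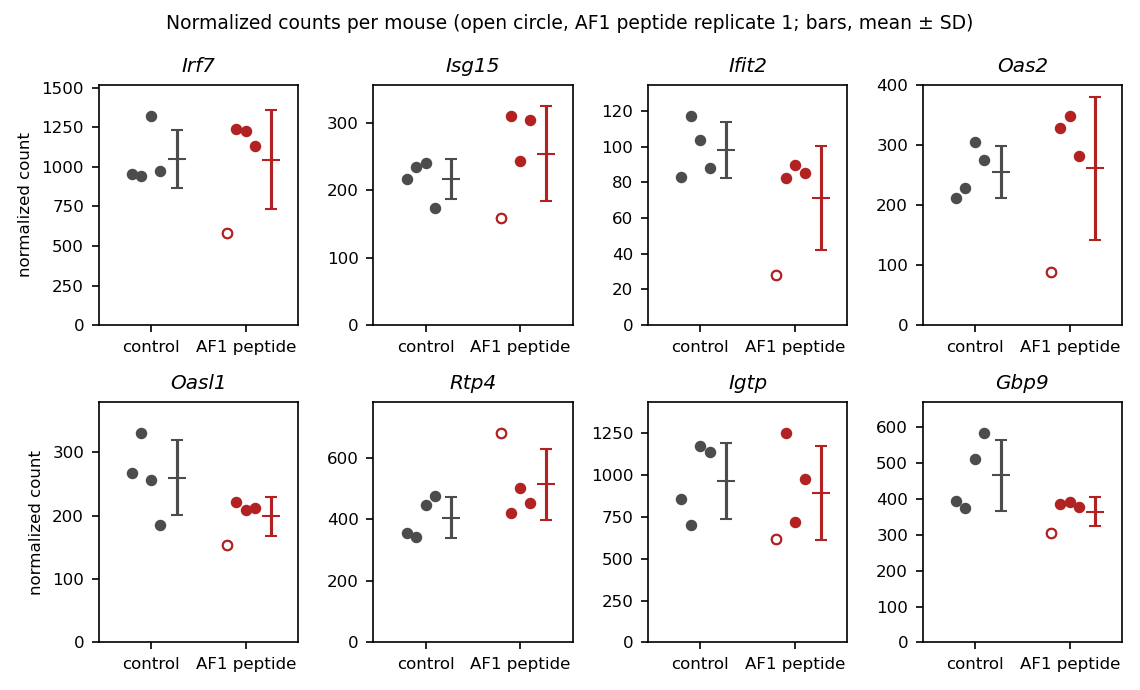
Points are the normalized counts of 8 of the 47 genes in each mouse, with control in grey, AF1 peptide in red and AF1 peptide replicate 1 as an open circle, and bars give the mean ± SD of 4 mice. The open circle is the lowest point for Ifit2 at 28.0 and for Oas2 at 87.7 but the highest for Rtp4 at 679, and the groups overlap in every panel.

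Among control mice, most GTPases were high in the same 2 animals. Control replicates 3 and 4 both lay above replicates 1 and 2 for 11 of the 12 GTPases, Irgm1 being the exception, and for 16 of the 35 antiviral genes. The share over all genes tested was 18.7%. Averaged over the GTPases, log2(normalized count + 1) was -0.19, -0.43, 0.25 and 0.36 from the control mean in control replicates 1, 2, 3 and 4. The median SD among controls was 0.36 on the log2 scale for the GTPases, 0.22 for the antiviral genes and 0.19 for all genes tested. Summed over the 6 T and NK cell markers that were tested, the normalized counts were 64.3, 59.1, 91.9 and 101 in the same 4 controls, and 99.8, 82.2, 90.6 and 66.1 in AF1 peptide-treated mice 1, 2, 3 and 4. That sum was the highest of the treated mice in AF1 peptide replicate 1, where the GTPase mean was the lowest at -0.55. Means in control replicates 1, 2, 3 and 4 were -0.11, -0.09, 0.17 and 0.02 for B cell markers. They were -0.19, 0.00, -0.09 and 0.28 for Kupffer cell and -0.63, 0.31, 0.35 and -0.02 for dendritic cell markers. All of the T and NK cell markers were low, and the part of any of these cells in the GTPase values was not tested.

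The GBP proteins coat pathogen vacuoles and break them open. Gbp9 had the smallest p value of all 47 genes, with 393, 375, 512 and 584 in controls and 304, 385, 392 and 377 with AF1 peptide. The treated mice were level with control replicates 1 and 2, apart from the lower replicate 1, and below control replicates 3 and 4. Means were 466 ± 99.3 and 365 ± 40.8 (SD, n = 4), and the log2 fold change was -0.34 ± 0.16 (limma adjusted p = 0.763). An unadjusted p value under 0.05 was reached with edgeR (log2 fold change -0.36), with equal totals (-0.43), without control replicate 1 (-0.41) and without control replicate 2 (-0.43). Gbp4 and Gbp8, with which Gbp9 overlaps on the same strand, had log2 fold changes of -0.08 and -0.04.

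Gbp3 and Gbp6 had their lowest level in AF1 peptide replicate 1, at 37.6% and 42.7% of the control mean, and Gbp6 shares 70.7% of its words with other genes, Gbp10 among them. Gbp4 was also lowest of the treated mice in replicate 1, at 212 or 64.4% of the control mean, and at 321, 330 and 322 in replicates 2 to 4. All of these lay within controls of 190 to 472. Gbp2 had a log2 fold change of -0.24 ± 0.20. Gbp7, with the GAS and ISRE cores shown above, had one of 0.07 ± 0.22 and was at 102% of the control mean in replicate 1.

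The IRG proteins act with the GBPs on vacuoles, and those of the Irgm type regulate the others. Igtp, which encodes Irgm3, had the highest level per kb of the GTPases (460 normalized counts per kb), at 855, 700, 1176 and 1136 in controls and 620, 1251, 722 and 980 with AF1 peptide. Low and high mice were found in both groups, and the log2 fold change was -0.14 ± 0.23 (limma adjusted p = 0.913). Iigp1, an effector of the family, came next at 358 per kb, with 1946, 1900, 2243 and 2495 in controls and 1115, 2873, 1623 and 2479 with AF1 peptide. Treated mice held both ends of the range, and the log2 fold change was -0.17 ± 0.26 (limma adjusted p = 0.9). Both genes were just above 0 without AF1 peptide replicate 1, at 0.02 and 0.08.

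Irgm1, the regulator with ISRE cores and no GAS core in its window, varied least of the GTPases among controls, at 930, 792, 929 and 873. With AF1 peptide it was at 613, 824, 693 and 862, so that 2 treated mice lay below all controls and the others among them. The log2 fold change was -0.25 ± 0.12 (limma adjusted p = 0.763). It was -0.34 with equal totals and -0.32 without AF1 peptide replicate 4, both with an unadjusted p value under 0.05. Tgtp1 varied most, from 94.5 to 292 within controls, and shares 81.2% of its words with its neighbour copies, Tgtp2 in the first place. Irgm2, whose exons overlap Igtp, had a log2 fold change of -0.13 ± 0.20, and Ifi47 one of -0.22 ± 0.18.

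Leaving out AF1 peptide replicate 1 moved the medians of both classes above 0. With the 3 remaining treated mice, the median log2 fold change was 0.14 for the antiviral genes and 0.05 for the GTPases, beside 0.00 for all genes tested, and 13 of the 47 genes lay below 0 against 50.8% of all genes tested. Of the 47 genes, 2 were then called higher, against 2.86% of all genes tested, and 0 were called lower, against 3.07%. The 2 genes were Isg15, with 0.40 ± 0.15 (limma adjusted p = 0.473), and Dhx58, with 0.40 ± 0.15 (limma adjusted p = 0.473), and Dhx58 is named after its values were seen. Isg15 was also the only 1 of the 47 whose treated values, 244 to 310, then lay above all controls, 174 to 240, where the same held for 4.35% of all genes tested. The median SD of the antiviral genes among treated mice was 0.43 on the log2 scale with replicate 1 and 0.13 without it, against 0.26 and 0.19 for all genes tested. Dropping this mouse was chosen with its values known, and the smallest adjusted p value over all 47 genes was then 0.473.

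**Figure D4:**
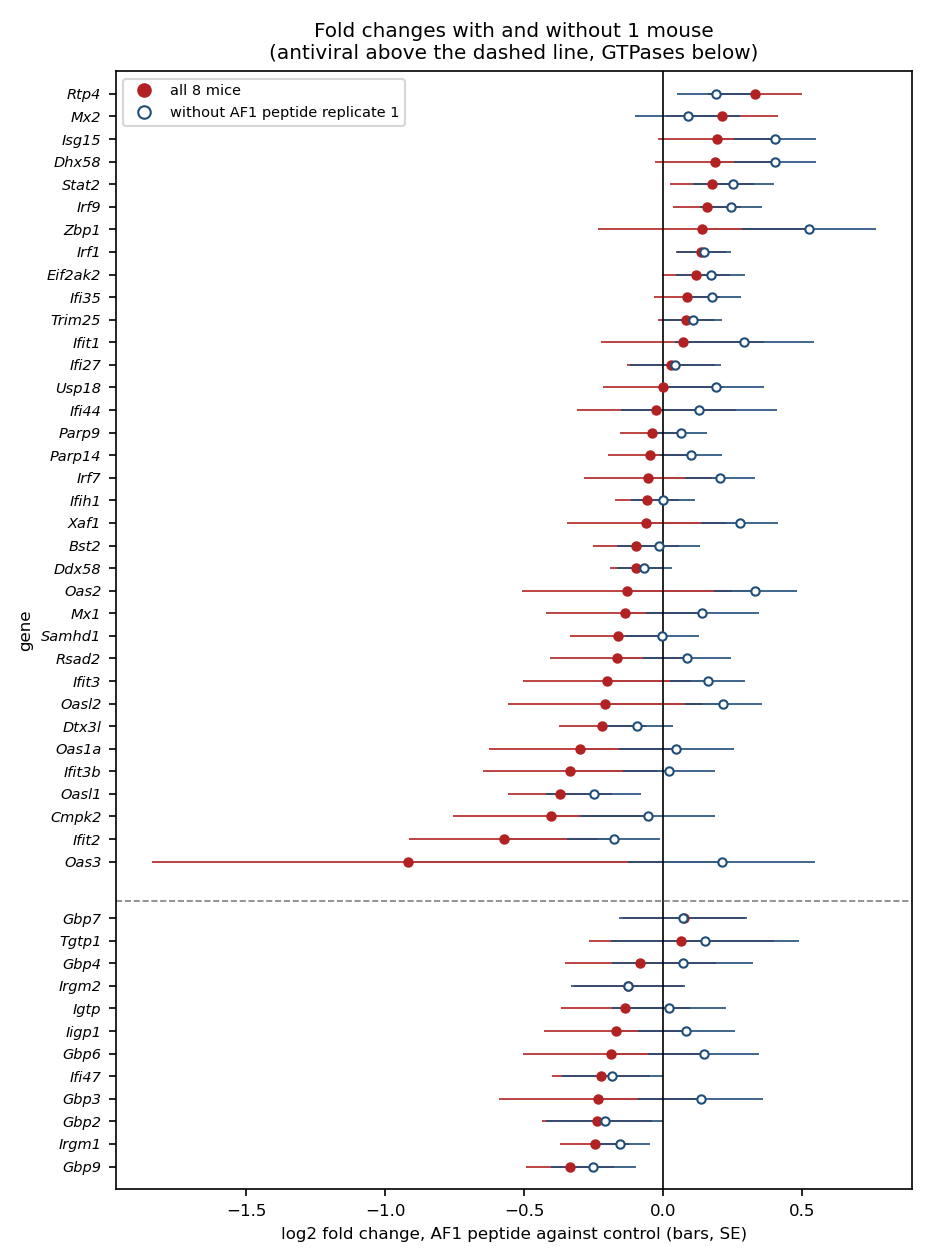
Log2 fold changes of the 47 genes (AF1 peptide against control, bars give the SE) with all 8 mice in red and without AF1 peptide replicate 1 as open blue circles, antiviral genes above and GTPases below the dashed line. With all mice 31 of the 47 genes lie left of 0, and without that mouse 13 do.

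The wider interferon pathway was read from fixed lists of 123 other genes with a row, of which 121 were tested. With AF1 peptide 1 was called lower and 0 called higher, beside 1.9% and 1.79% of all genes tested, and 2 had an unadjusted p value under 0.05. The median log2 fold change of the 121 genes was -0.05. Of the receptor subunits, 0 of 6 were called: Ifnar1 and Ifnar2 had log2 fold changes of 0.02 and 0.04, and Ifngr1 and Ifngr2 had -0.13 and -0.20. Among 6 genes of the JAK-STAT signal 0 were called. Of 15 brakes on the signal, such as the SOCS and PIAS genes, and of 14 genes of the induction pathway, such as Mavs and Irf3, 0 were called.

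The 2 genes with an unadjusted p value under 0.05 belonged to the 80 tested genes of the list of other interferon-stimulated genes. Plscr1, a scramblase of membrane lipids that restricts viruses, was at 206, 299, 214 and 247 in controls and 120, 155, 195 and 209 with AF1 peptide. Treated mice were the lowest 3, the groups overlapped by 1 mouse, and the log2 fold change was -0.52 ± 0.19 (limma adjusted p = 0.763). Tdrd7, a Tudor domain protein that restrains autophagy used by viruses, was at 606, 618, 531 and 519 in controls and 428, 484, 462 and 500 with AF1 peptide. Its groups did not overlap, but its fold change of -0.28 ± 0.10 on the log2 scale stayed under the 1.3-fold threshold (limma adjusted p = 0.763). Without AF1 peptide replicate 1 they were at -0.37 and -0.23, so Plscr1 fell short of the 1.3-fold threshold and was no longer called. Plscr1 also had an unadjusted p value above 0.05 with each gene's own variance and without AF1 peptide replicate 2 or control replicate 2, and so did Tdrd7 without control replicate 1 or control replicate 2. Without AF1 peptide replicate 1, 6 of the 121 genes were called higher and 1 lower (Irf2bp2, named after its values were seen), beside 2.86% and 3.07% of all genes tested.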

How the data were processed

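TRIzol was used to extract RNA from the livers of 8 male db/db mice, and libraries were made with a stranded mRNA kit. Reads were trimmed by the authors (TrimGalore 0.6.7), aligned (HISAT2), sorted (SAMtools 1.17) and assigned to genes (GenomicAlignments). The build named in the submitters' processing notes is mm39, and the annotation, the use of strand and the treatment of reads matching several genes are not given in the sources used here. The deposited values are normalized counts, a signal equal to the reads of a gene divided by 1 size factor per library. Whole reads were recovered for 100% of 172256 values (tolerance 0.01 reads), and count models were used only as alternatives. The expected unit was found, and no column was left out. Groups and replicate numbers came from the sample labels. Chi-square statistics of the reads found no library deposited again under another label.

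limma 3.58.1 in R 4.3.3 was fitted with an intensity trend on log2(normalized count + 1) over the 15989 genes with a mean of at least 10, with Benjamini-Hochberg adjustment over all of them. The added 1 draws fold changes of low genes toward 0. Oas3, with 0 reads in 1 mouse, still had a log2 fold change of -0.92 in limma, against -0.08 in edgeR and -0.10 in DESeq2. Exon lengths, exon overlaps and shared 50-base words came from GENCODE M21, and promoter windows from RefSeq (GRCm38.p6), matched by symbol, with matched bases not compared with mm39 coordinates. The members and lists were chosen with earlier results of these data known. Values per mouse are given for genes with p under 0.05, without overlap, the 4 regulators, the 2 highest per kb in each class, the smallest p of each role group and the 3 widest log2 ranges above a mean of 50, and for pathway genes with p under 0.05. 1 gene that the rule also names is not reported here. Alternatives were pseudocounts of 0.5 and 5, other filters, TMM factors, equal totals, limma without trend or with each gene's own variance, edgeR 4.0.16, DESeq2 1.42.0, a block for the replicate number and each mouse left out in turn. The limma fit was tested on simulated data. Depth, counted as reads assigned to the deposited genes, was 23031880 to 45117528 reads per mouse.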

Additional observations from a re-analysis of the deposited data

Results flagged for a closer look

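A mouse was set aside as far from the other 3 of its group when its gap to the nearest, divided by the range of the group, passed Dixon's critical value for 4 mice. Of the 50 groups compared it was found for 8. Chance gives it for about 1 in 20 independent groups, but the same 8 mice recur in these groups and some genes were named for their wide range, so the count was not set against chance. Of these, 5 were AF1 peptide replicate 1 as the lowest of its group. Its ratio was 0.83 for Irf7, at 583, 0.877 for Ifit2, at 28.0, and 0.833 for Gbp9, at 304. For the mean log2 difference from the control mean, the ratio was 0.889 for the antiviral genes, at -0.70, and 0.872 for the Kupffer cell markers, at -1.24.

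The other 3 were single high values. Irf1 in AF1 peptide replicate 2 was at 1481, with a ratio of 0.897, and Irf7 in control replicate 3 at 1321, with a ratio of 0.907. The total of control replicate 1, 45117528 assigned reads, had a ratio of 0.857.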

How the results depend on the processing

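Under 11 alternatives that kept all 8 mice, the medians of both classes stayed below 0. With equal totals, which moved the median of all genes tested to -0.10, the medians were -0.14 for the antiviral genes and -0.27 for the GTPases, and 2 members were called lower (3.77% of all genes tested). With a mouse left out in turn, the median ran from -0.14 to 0.14 for the antiviral genes and from -0.31 to 0.05 for the GTPases, and 0 to 1 members were called lower and 0 to 2 higher, beside 1.08 to 3.07% and 1.24 to 2.86% of all genes tested. Of the 121 other pathway genes, 4 were called lower with equal totals, 0 with each gene's own variance and 1 to 5 with a mouse left out, and 1 was called higher by DESeq2 and 0 to 6 with a mouse left out. The log2 fold change changed sign with at least 1 mouse left out for 26 of the 47 members, against 41.9% of all genes tested, and 18 turned without AF1 peptide replicate 1. Among the members with values given per mouse these were Irf7 (-0.16 to 0.21), Zbp1 (-0.14 to 0.52), Oas2 (-0.33 to 0.33), Bst2 (-0.20 to 0.0047), Igtp (-0.32 to 0.021) and Iigp1 (-0.37 to 0.084), and Oas2 also turned with DESeq2 (0.037) and edgeR (0.031). Xaf1 and Tgtp1 turned with DESeq2 and edgeR as well, 7 members with equal totals and 1, Usp18, with TMM factors. The cause was not tested.

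The replicate numbers are shared by the groups but stand for different mice. Same-numbered mice had correlations of 0.235, 0.0238, 0.216 and -0.064 of their deviations from the group means over all genes tested, so the numbers were not taken to pair them. With the replicate block, 0 members, 3 pathway genes lower and 1 higher were called, beside 2.45% lower and 2.13% higher of all genes tested, and Gbp9 (log2 fold change -0.34) then had an unadjusted p value under 0.05.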
